A study of Mus musculus with 14 samples.

Results

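The chaperone genes were taken as the entries of the 2 deposited count tables whose symbols belong to the HSP70 (Hspa), small heat shock protein (Hspb), HSP90, mitochondrial chaperonin (Hspd1 and Hspe1), HSP110 (Hsph1), J-domain (Dnaja, Dnajb and Dnajc) and Cct families. Symbols with -ps, 2 in all, were left out. Of the 81 matching genes, 72 had at least 10 counts in at least 6 libraries, out of 36335 named entries in all. The 9 genes below that level were Cct6b, Cct8l1, Dnajb7, Dnajb8, Dnajc5b, Dnajc5g, Hspa1l, Hspb3 and Hspb7. Of the 72 genes, 68 also had enough label to be tested for labelled RNA, and Hspb9, Hspa12b, Dnajc28 and Hspb2 did not.

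The data came from mouse E14 embryonic stem cells, either WT or Mettl3-KO. E14 is given as the cell line of every library, but the source field of both Mettl3-KO libraries of 8 h reads E15 or E16. Mettl3 is the catalytic subunit of the enzyme that writes m6A, a methyl mark on mRNA. Cells of both genotypes had been held for 2 weeks in FBS/LIF medium with 200 nM INK128, which inhibits mTOR and puts these cells into a paused, slowly growing state. All cells then received 100 µM S4U, a thiolated uridine that is built into new RNA, for 12 h with an exchange of medium every 3 h. They were collected 0, 1, 3 or 8 h after S4U was removed. RNA was treated with 10 mM iodoacetamide, after which S4U is read as C, and 100 ng went into each library of mRNA 3′ ends. Each time point held 2 libraries per genotype, except for WT at 0 h and at 3 h, which had 1 library each, giving 6 WT and 8 Mettl3-KO libraries. The labels state neither whether a replicate is a culture of its own nor whether the Mettl3-KO line is 1 clone. The p-values therefore rest on the spread among these libraries alone, which may be technical, and a difference between the genotypes is a difference between these lines.

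Chaperones bind proteins that are unfolded or being folded. HSP70 proteins hold exposed stretches of a chain and release them on ATP exchange, J-domain proteins bring them clients and stimulate their ATPase, and HSP90 acts later on folded but unstable clients such as kinases. Chaperonins enclose a client in a chamber, TRiC (built from the Cct subunits and Tcp1) in the cytosol and Hspd1 with its lid Hspe1 in mitochondria, while small heat shock proteins hold aggregating proteins without ATP. Many cytosolic members are targets of heat shock factors, which bind repeated GAA units, and many members of the endoplasmic reticulum (ER) are induced by the unfolded protein response through the ER stress element.

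Sequences at the start sites are shown because Dnajb6, Hspd1, Hspe1, Hspa1b, Hspa5 and Dnajc3, whose levels are described below, carry these motifs. RefSeq promoters of GRCm38.p6, the assembly of mm10, were at hand for 58 of the 72 genes and ran from 250 bases before to 50 bases after a start. On both strands, 3 heat shock units in a row, GAANNTTCNNGAA or its reverse complement TTCNNGAANNTTC, were found at 4 of these 58 genes, Dnajb6, Hspd1, Hspe1 and Hsph1, the last of which was not called in total RNA with all libraries. They were found in 0.603% of all 32851 promoters in the table, and at 0.662% of the 27025 genes these belong to. Hspd1 and Hspe1 are transcribed in opposite directions and share these units. The units lie between the Hspe1 start at 55088148 and an Hspd1 start at 55087932, with 215 bases between these starts. Another annotated Hspd1 start, at 55088243, lies past the Hspe1 start, and from there the units lie inside Hspd1. In the following windows of up to 30 bases the capitals mark the units. The first window lies at chr1:55088053-55088082 on the plus strand, and its 18 capitals hold 2 overlapping matches.
Hspd1 and Hspe1: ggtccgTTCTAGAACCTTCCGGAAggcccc
The Dnajb6 window lies at chr5:29735844-29735872 on the plus strand, and its match begins 46 bases before 1 annotated start and 127 bases before the other.
Dnajb6: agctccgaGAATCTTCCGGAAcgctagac
The Hsph1 window lies at chr5:149636280-149636308 on the minus strand, just after the annotated starts.
Hsph1: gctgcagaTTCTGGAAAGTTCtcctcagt

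Hspa1b and Hspa1a encode the stress-inducible HSP70 and are known as near-identical neighbours, so their values are uncertain. Their promoters were identical at 296 of 300 bases, while their 3′ ends, from which the reads come, were not compared here. Both hold the pair of units GAANNTTC, which 7.86% of all promoters, 9.04% of all genes with a promoter and 13 of the 58 members hold. Of these 13, total RNA was called higher with all libraries for 6 (Dnaja4, Dnajb6, Hspa1b, Hspb8, Hspd1 and Hspe1), lower for Hspb1, and not called for 6 (Cct2, Dnaja1, Dnajc27, Hspa1a, Hspb6 and Hsph1). Of all 72 members 19.4% were called higher and 5.56% lower, and of all genes 12.1% and 9.99%. The opposite pair, TTCNNGAA, was found at 8 of the 58 members, in 8.52% of all promoters and at 9.60% of all genes with a promoter. Of these 8, Dnajb6, Hspd1 and Hspe1, which hold 3 units, were called higher. Cct5, Cct6a, Dnajb4, Dnajc10 and Hsph1 were not called. In Hspa1b and Hspa1a the GAANNTTC match begins 104 bases before the start, at chr17:34959324-34959353 for Hspa1b and chr17:34972242-34972271 for Hspa1a, both on the minus strand.
Hspa1b and Hspa1a: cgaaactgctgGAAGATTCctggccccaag
The ER stress element, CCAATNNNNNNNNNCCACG or its reverse complement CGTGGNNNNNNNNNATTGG, was found at Hspa5, Dnajc3 and Hsp90b1, the last not called in total RNA. It was found in 0.119% of all promoters and at 0.137% of all genes with a promoter. The windows lie at chr2:34772020-34772048 (plus strand), chr14:118937822-118937850 (plus strand) and chr10:86705633-86705661 (minus strand). The Hsp90b1 match shown begins 212 bases before the start, and another match there, not shown, begins 107 bases before it.
Hspa5: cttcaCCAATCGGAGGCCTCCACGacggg
Dnajc3: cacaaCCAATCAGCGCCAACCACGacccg
Hsp90b1: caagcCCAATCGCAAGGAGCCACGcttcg
These matches describe the letters in the windows only. Binding of a factor was not measured.

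Depth was 6108100 to 26654200 counts in 12 libraries. In WT 1 h replicate 2 it was 49154 and in Mettl3-KO 3 h replicate 2 it was 602297, and these are called the 2 shallow libraries. The first held 406 counts over all 72 chaperone genes, with 24 genes at 0, and the second held 3279, with 7 genes at 0. Mettl3-KO 3 h replicate 2 also stood apart at single members: Dnajc30, a mitochondrial J-domain protein, had 297 CPM there (counts per library total, scaled by TMM) and between 15.7 and 28.1 in the other Mettl3-KO libraries. Results are therefore given with all 14 libraries and, where they move, with the 12 deep ones. Mettl3 itself was at 42.1 ± 21.7 CPM (SD, n = 6) in WT and 2.22 ± 1.54 CPM (SD, n = 8) in Mettl3-KO. Summed ES cell markers were at 4997 to 6712 CPM in deep WT libraries and 4094 to 6002 CPM in deep Mettl3-KO libraries, with 1 of 10 called lower and none called higher. Of 7 measured endoderm markers 4 were lower and 1 was higher (summed 111 to 149 CPM in WT and 20.9 to 37.9 in Mettl3-KO). Of 5 neural markers 2 were higher and 1 was lower (75.9 to 101 CPM and 472 to 743). Of 4 measured fibroblast markers 1 was lower (15.5 to 29.2 CPM and 7.86 to 12.6), and Postn was at 0 in every library. The part of these markers in the chaperone results was not tested. In bulk RNA, fewer cells of a type and less RNA per cell cannot be told apart.

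The first question was whether total chaperone RNA differed without Mettl3. In Mettl3-KO, 14 of 72 chaperone genes were higher and 4 were lower at an adjusted p under 0.05. These are 19.4% and 5.56% of the members, against 12.1% called higher and 9.99% called lower among all 14641 genes tested. The median log2 change was 0.32 over the members and 0.05 over all genes, and 48 of the 72 members lay above 0. With the 12 deep libraries 27 members were higher and 6 were lower, where 21.9% and 19.3% of all genes were called. The members together took 1.14% to 1.42% of the counts of a deep WT library and 1.32% to 1.86% of a deep Mettl3-KO library. At 0 h the lines were level, at 1.42% in WT and 1.45% and 1.32% in Mettl3-KO. At 8 h the members took 1.34% and 1.26% in WT and 1.80% and 1.86% in Mettl3-KO. RefSeq places 32 of the 72 genes over another gene, and whether the counting used strand is not given in the sources used here, so reads of such pairs may be mixed.

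**Figure D1:**
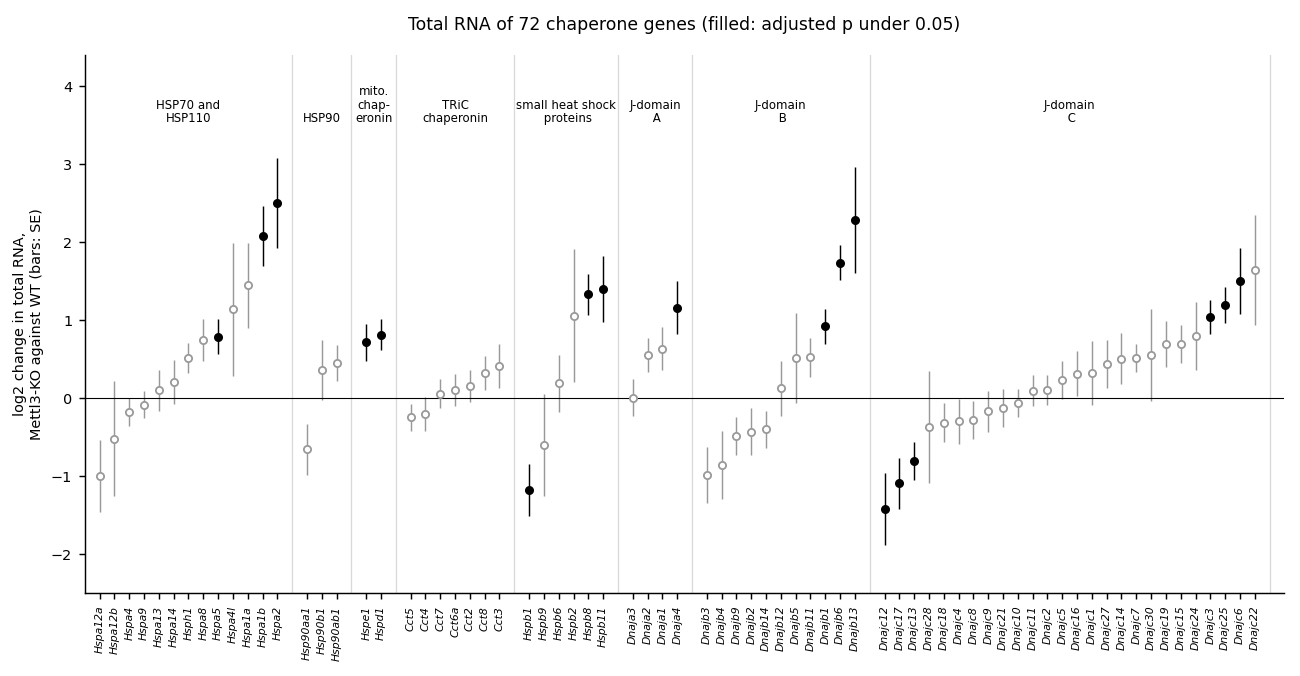
Log2 change in total RNA between Mettl3-KO and WT for each of the 72 chaperone genes, by family, with bars for the standard error and filled points for an adjusted p under 0.05. The 14 genes called higher are spread over 6 families, the 4 called lower are in the J-domain C family and the small heat shock proteins, and no HSP90 or TRiC gene is filled.

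Among the HSP70 and HSP110 genes, 3 of 13 were higher and none was lower, where 12.1% and 9.99% of all genes were called. Hspa1b (chromosome 17, 34956429 to 34959238) lay between 0.887 and 3.49 CPM in the deep WT libraries, with a median of 2.37. In the deep Mettl3-KO libraries it lay between 2.95 and 19.2 CPM, with a median of 6.30. The groups overlapped slightly, and the highest values were the 19.2 CPM at 3 h and the 16.4 and 11.0 CPM at 8 h in Mettl3-KO. The log2 change was 2.08 (SE 0.39, adjusted p = 0.00181), a 4.22-fold difference. Hspa1a had a log2 change of 1.45 and missed the threshold with all libraries (adjusted p = 0.0702). It passed with the 12 deep ones (log2 1.46, adjusted p = 0.0339).

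Hspa5 (chromosome 2, 34772090 to 34776529) encodes BiP, the HSP70 of the ER, and overlaps Rabepk. Its lowest, median and highest values in the deep libraries were 224, 284 and 319 CPM in WT and 332, 476 and 748 CPM in Mettl3-KO. All deep Mettl3-KO libraries lay above all deep WT libraries, while the shallow WT library was at 385 CPM and the shallow Mettl3-KO library at 262. The log2 change was 0.79 (SE 0.23, adjusted p = 0.0221). Hspa2, the HSP70 of germ cells, was low in both lines, with a median of 0.946 CPM in deep WT and 4.83 CPM in deep Mettl3-KO libraries, and its log2 change was 2.50 (SE 0.57, adjusted p = 0.00663).

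Hspa8, the constitutive cytosolic HSP70, was between 732 and 1158 CPM in deep WT libraries and between 1080 and 1893 in deep Mettl3-KO libraries. At 0 h it was at 1158 CPM in WT and at 1080 and 1235 in Mettl3-KO, and at 8 h at 1010 and 895 in WT and at 1893 and 1684 in Mettl3-KO. The log2 change of 0.75 missed the threshold with all libraries (adjusted p = 0.0602) and passed it with the 12 deep ones (log2 0.73, adjusted p = 0.003). Hsph1, the HSP110 that exchanges nucleotide on HSP70, behaved alike in these 2 fits (log2 0.52, adjusted p = 0.0735, and 0.61, adjusted p = 0.00574). Hspa9, the mitochondrial HSP70, had a log2 change of -0.08 (adjusted p = 0.79), and its deep libraries spanned 464 to 643 CPM in WT and 411 to 612 in Mettl3-KO.

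Both parts of the mitochondrial chaperonin were higher. Hspd1, the chamber (chromosome 1, 55077833 to 55088243), was at 197 CPM at 0 h, 144 at 1 h, 133 at 3 h and 200 and 207 at 8 h in deep WT libraries. In Mettl3-KO it was at 226 and 308 CPM at 0 h, 257 and 251 at 1 h, 298 at 3 h and 470 and 387 at 8 h. The deep libraries of the genotypes did not overlap, whereas the shallow Mettl3-KO library was at 141 CPM. The log2 change was 0.81 (SE 0.20, adjusted p = 0.0102). Hspe1, the lid (chromosome 1, 55088148 to 55091317), ranged from 515 to 763 CPM in deep WT and from 770 to 1360 in deep Mettl3-KO libraries (log2 0.72, SE 0.23, adjusted p = 0.0395). At 0 h Hspe1 was at 763 CPM in WT and at 770 and 863 in Mettl3-KO. At 8 h it was at 640 and 583 CPM in WT and at 1360 and 1222 in Mettl3-KO. The RefSeq gene models of this pair overlap by 96 bases.

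No HSP90 gene was called with all libraries. Hsp90ab1, the constitutive cytosolic HSP90, spanned 1926 to 3003 CPM in deep WT and 2735 to 5033 CPM in deep Mettl3-KO libraries. Its log2 change was 0.45 (adjusted p = 0.187), and 0.48 with the 12 deep libraries (adjusted p = 0.0445). Hsp90aa1, the stress-inducible form, had a log2 change of -0.66 (adjusted p = 0.175), and Hsp90b1, the form of the ER, of 0.36 (adjusted p = 0.563). None of the 7 measured Cct genes was called with all or with the deep libraries, and their log2 changes lay between -0.24 (Cct5) and 0.41 (Cct3). Tcp1, the remaining TRiC subunit, was at -0.10 (adjusted p = 0.749). Cct3 was at 515 CPM in WT and 315 and 437 CPM in Mettl3-KO at 0 h, but at 472 and 485 CPM in WT and 834 and 930 CPM in Mettl3-KO at 8 h, so its groups changed order between these times.

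**Figure D2:**
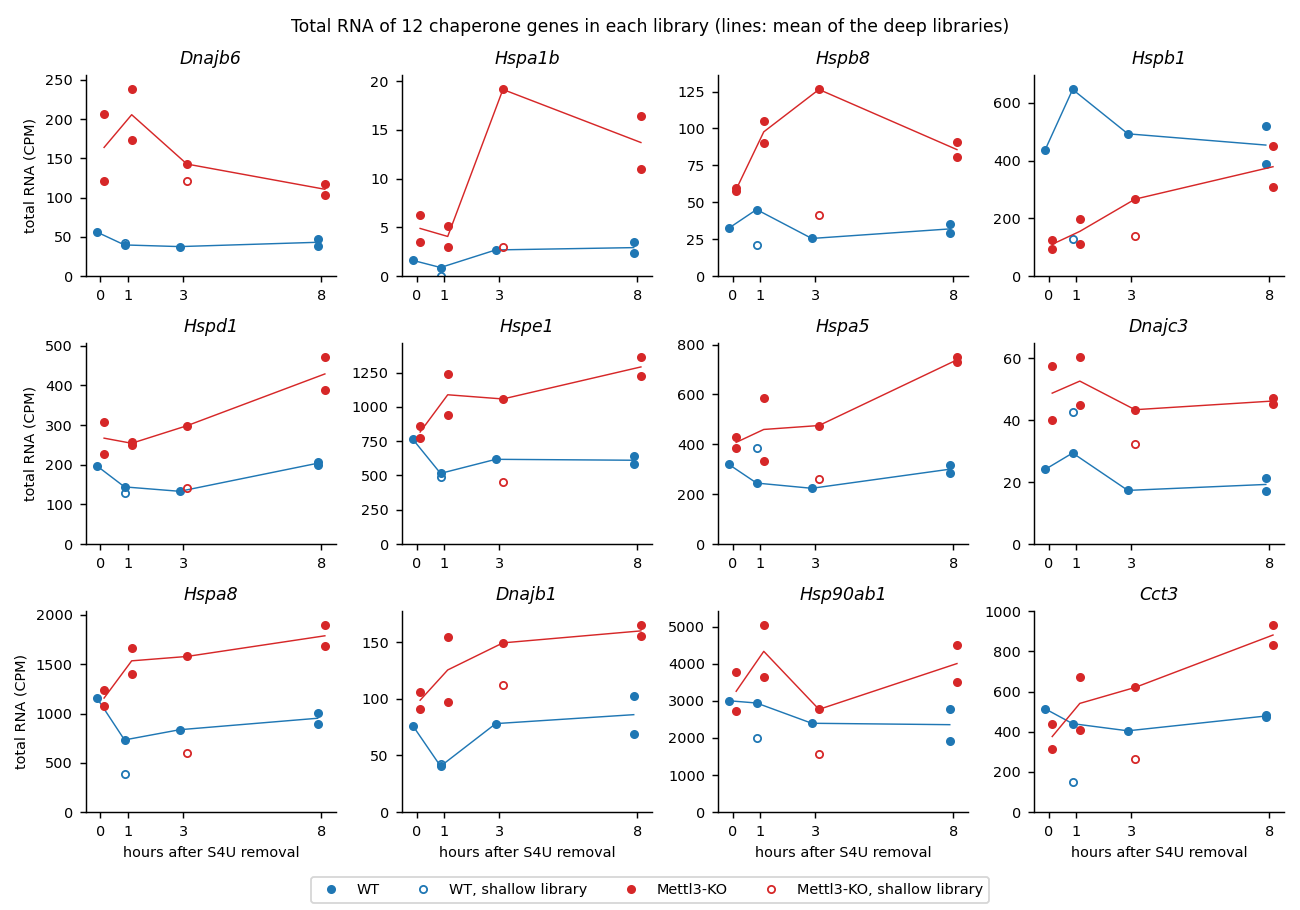
Total RNA in CPM (y axis, from 0) against hours after S4U removal for 12 chaperone genes, 1 point per library, with open points for the 2 shallow libraries and lines through the means of the deep libraries. Dnajb6, Hspb8, Hspd1, Hspe1, Hspa5 and Dnajc3 of Mettl3-KO lie above WT in all deep libraries, and Hspb1 of Mettl3-KO lies below WT at 0 h (93.9 and 127 against 436 CPM) and near it at 8 h.

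The small heat shock proteins moved in both directions, with 2 of 6 higher and 1 lower, where 12.1% and 9.99% of all genes were called. Hspb8 (chromosome 5, 116408491 to 116422864), which works with Bag3 and HSP70 in the removal of aggregated proteins, was at 32.6, 45.1, 25.5, 29.0 and 35.0 CPM in the deep WT libraries. In Mettl3-KO it was at 57.4 and 60.0 CPM at 0 h, 105 and 90.3 at 1 h, 126 at 3 h and 90.9 and 80.4 at 8 h. All deep Mettl3-KO values lay above all WT values, and the log2 change was 1.33 (SE 0.27, adjusted p = 0.00276). Hspb11, named like the family but known as a part of intraflagellar transport, was the other gene called higher (log2 1.40, SE 0.42, adjusted p = 0.0282).

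Hspb1 (chromosome 5, 135887919 to 135889563), which encodes the major small heat shock protein of stressed cells, was lower in Mettl3-KO. It was at 436 CPM at 0 h, 646 at 1 h, 493 at 3 h and 387 and 520 at 8 h in deep WT libraries. In Mettl3-KO it was at 93.9 and 127 CPM at 0 h, 112 and 197 at 1 h, 266 at 3 h and 307 and 450 at 8 h. The Mettl3-KO libraries lay below WT up to 3 h, and at 8 h the groups overlapped. The log2 change over all times was -1.18 (SE 0.33, adjusted p = 0.0201).

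Of the 41 J-domain genes 7 were higher (17.1%, against 12.1% of all genes) and 3 were lower (7.32%, against 9.99%). Dnajb6 (chromosome 5, 29735898 to 29786478), which keeps polyglutamine proteins from aggregating, had the smallest p of the members. Its lowest, median and highest values in the deep libraries were 37.7, 39.8 and 56.2 CPM in WT and 104, 143 and 238 CPM in Mettl3-KO. The groups did not overlap, the shallow libraries at 42.7 and 121 CPM included. The log2 change was 1.74 (SE 0.22, adjusted p = 0.000136), a 3.34-fold difference. Dnajb1, the main partner of HSP70 under stress, was between 40.5 and 103 CPM in deep WT and between 91.3 and 165 in deep Mettl3-KO libraries (log2 0.92, SE 0.22, adjusted p = 0.00923). Dnaja1, a farnesylated cytosolic J-domain protein, passed only with the deep libraries (log2 0.64, adjusted p = 0.112, and 0.77, adjusted p = 0.00678).

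Dnajc3, a co-chaperone of BiP in the ER, had 17.2, 21.4 and 29.4 CPM as lowest, median and highest value in deep WT libraries and 40.1, 45.2 and 60.3 CPM in deep Mettl3-KO libraries. These groups did not overlap, and the log2 change was 1.04 (SE 0.22, adjusted p = 0.00349). Dnajc25 (chromosome 4, 58994799 to 59025573) had 16.0, 24.8 and 30.5 CPM in deep WT and 45.3, 52.9 and 68.9 CPM in deep Mettl3-KO libraries, again without overlap (log2 1.2, SE 0.23, adjusted p = 0.00231). Dnajc6, the clathrin-uncoating protein auxilin, was higher with a log2 change of 1.51 (adjusted p = 0.0211). Dnaja4 followed with 1.16 (adjusted p = 0.0249) and Dnajb13, a protein of the ciliary axoneme, with 2.28 (adjusted p = 0.0263), both from low levels. Dnajb13 had 0 counts in WT 8 h replicate 2 and in both shallow libraries.

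The 3 lower J-domain genes were Dnajc17, Dnajc13 and Dnajc12. Dnajc17, known from the spliceosome, was between 16.9 and 31.4 CPM in deep WT and between 4.38 and 15.0 CPM in deep Mettl3-KO libraries (log2 -1.09, SE 0.33, adjusted p = 0.0278). Dnajc13, which acts on endosomes, was between 64.2 and 129 CPM and between 41.1 and 62.0 CPM (log2 -0.80, SE 0.24, adjusted p = 0.0291). In both genes the deep libraries did not overlap. Dnajc12, a partner of aromatic amino acid hydroxylases, was under 8 CPM in all libraries (log2 -1.42, SE 0.46, adjusted p = 0.0403).

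Of the 18 calls, 8 were kept when any 1 of the 14 libraries was left out: Dnajb6, Hspa1b, Dnajc25, Hspb8, Dnajc3, Hspa2, Dnajb1 and Hspd1. The other 10 were lost without at least 1 deep library. The call of Hspb1 was lost without WT 0 h replicate 1, WT 1 h replicate 1, WT 3 h replicate 1 or Mettl3-KO 1 h replicate 1 (log2 -1.33 to -0.84, highest adjusted p = 0.0971). That of Hspa5 was lost without WT 1 h replicate 1, WT 3 h replicate 1, Mettl3-KO 1 h replicate 2 or any of the 8 h libraries (0.70 to 0.91, highest adjusted p = 0.0638). Hspe1 held only without WT 0 h replicate 1, Mettl3-KO 0 h replicate 1, WT 3 h replicate 1 or a shallow library (0.62 to 0.87, highest adjusted p = 0.0927). Dnajc6 failed without WT 0 h replicate 1, WT 8 h replicate 1 or Mettl3-KO 1 h replicate 1 (highest adjusted p = 0.0592). Dnajb13 failed without WT 1 h replicate 1, WT 3 h replicate 1, Mettl3-KO 3 h replicate 1 or Mettl3-KO 8 h replicate 1 (highest adjusted p = 0.0686). Dnaja4 failed without WT 0 h, 1 h or 8 h replicate 1, Mettl3-KO 3 h replicate 1 or either Mettl3-KO 8 h library (highest adjusted p = 0.0714). Hspb11 failed without WT 0 h or 1 h replicate 1, WT 8 h replicate 2, Mettl3-KO 0 h replicate 2 or either Mettl3-KO 8 h library (highest adjusted p = 0.0861). Dnajc17 failed without WT 0 h, 1 h, 3 h or 8 h replicate 1, Mettl3-KO 1 h replicate 2 or either Mettl3-KO 8 h library (highest adjusted p = 0.122). Dnajc13 failed without WT 1 h or 3 h replicate 1, WT 8 h replicate 2 or either Mettl3-KO 8 h library (highest adjusted p = 0.135). Dnajc12 held only without Mettl3-KO 3 h replicate 1, WT 8 h replicate 2 or a shallow library (highest adjusted p = 0.201).

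Other folding genes outside the family names showed the following with all libraries, where 12.1% of all genes were called higher and 9.99% lower. Of 29 cytosolic co-chaperones 5 were higher and 4 lower. Bag3, the partner of Hspb8, was at 11.0 ± 15.6 CPM (SD, n = 6) in WT and 29.4 ± 20.5 CPM (SD, n = 8) in Mettl3-KO, with a log2 change of 2.25 (SE 0.44, adjusted p = 0.00236). Ahsa1, which stimulates the ATPase of HSP90, was higher (log2 0.86, adjusted p = 0.0139), whereas Fkbp8 (log2 -1.18, adjusted p = 0.00782) and Sugt1 (log2 -0.79, adjusted p = 0.00813) were lower. Of 10 TRiC partners and prefoldin genes 1 was higher (Pfdn5, log2 0.67, adjusted p = 0.0151). Of 16 measured ER folding genes 1 was higher (Sil1, the nucleotide exchange factor of BiP, log2 1.41, adjusted p = 0.0135). Of 10 mitochondrial folding genes Grpel2 (log2 1.04, adjusted p = 0.0156) and Lonp1 (log2 0.60, adjusted p = 0.0413) were higher and Hscb was lower (log2 -0.85, adjusted p = 0.0222). None of 4 measured genes of heat shock factors or their regulator Hsbp1, together called heat shock factor genes here, was called. These were Hsf1 (log2 0.26, adjusted p = 0.605), Hsf2 (log2 0.93, adjusted p = 0.0769), Hsf5 and Hsbp1. With the 12 deep libraries the counts were 6 higher and 6 lower for the co-chaperones, 3 and 0 for the TRiC partners and prefoldin, 4 and 1 for the ER genes, 4 and 1 for the mitochondrial genes and 2 and 0 for the heat shock factor genes, where 21.9% and 19.3% of all genes were called.

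The second question was whether total RNA moved during the chase, which began with a change of medium. With edgeR none of the 72 members was called over the 4 times (0% of the 14641 genes were called), while 6 members and 890 genes had an unadjusted p under 0.05. DESeq2 called 5.09% of the genes that had an adjusted p and 3 members, Hspa1b (adjusted p = 0.0275), Hspa4l (0.0341) and Hsph1 (0.0442). Hsph1 was at 128 CPM at 0 h and 187 and 166 at 8 h in WT, and at 139 and 156 CPM at 0 h and 287 and 291 at 8 h in Mettl3-KO, so the 8 h libraries were the highest in both lines. Hspa4l stood apart in Mettl3-KO 3 h replicate 2, where it was at 133 CPM against 4.56 or less in the other Mettl3-KO libraries. Nor did any member differ between the genotypes in its change per hour (0% of genes called, with 1 member and 728 genes at an unadjusted p under 0.05). That member was Hspb1, with 0.20 log2 per hour more in Mettl3-KO (adjusted p = 0.989, and 0.0620 with the 12 deep libraries, where 0.549% of genes were called). DESeq2 called none of the members and 1.35% of genes.

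The label itself came next. At 0 h the summed members were labelled at 48.7% in WT (conversion counts divided by total counts) and at 35.3% and 33.9% in Mettl3-KO, where whole libraries were at 39.4% and at 26.1% and 26.6%. Tests of label at 0 h used the start of a straight line fitted over all chase hours, not the 0 h libraries alone. By this fit, labelled RNA of a gene per unit of the library's total RNA was higher in Mettl3-KO for 1 of 68 members and lower for 2. Of the 12678 genes tested, 1.35% and 6.27% were called. The higher gene was Dnajb6 (log2 1.86, adjusted p = 0.0155), and the lower genes were Hspb1 (log2 -2.27, SE 0.49, adjusted p = 0.000521) and Hspa12a (log2 -2.58, adjusted p = 0.0381). The member median was -0.28 and that of all genes -0.35. The Hspb1 call held without any 1 library. The Dnajb6 call was lost without WT 0 h replicate 1 or WT 1 h replicate 1 (highest adjusted p = 0.118). The Hspa12a call was lost without WT 1 h or 3 h replicate 1, either Mettl3-KO library of 0 h or 1 h, or Mettl3-KO 8 h replicate 2 (highest adjusted p = 0.0911). With the 12 deep libraries 2 members were higher and 3 lower (1.57% and 8.55% of all genes). When conversion counts were scaled to each other rather than to total RNA, the median of all genes moved from -0.35 to 0.06, that of the members from -0.28 to 0.14, and 4 members were higher and 1 (Hspb1) lower (3.04% and 3.87% of all genes).

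Against each gene's own total count, the labelled share at 0 h by the same kind of fit differed for no member (0.00789% of genes were called, and 3 members and 826 genes had an unadjusted p under 0.05). The member median was -0.41 and that of all genes -0.42, and 62 of 68 members lay below 0. Dnajb6 and Hspb1, which differed in labelled RNA, had fitted changes of -0.22 and -0.41 in this share.

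The third question was how fast label was lost. In WT 64 of 68 members lost label (94.1%, against 91.4% of all genes), and in Mettl3-KO 60 did (88.2%, against 88.2%). The exceptions in WT were Dnajc12, Dnajc25, Hspa1a and Hspa1b. In Mettl3-KO they were Dnajb13, Dnajc12, Dnajc19, Dnajc25, Hspa1b, Hspa4l, Hspb1 and Hspb8. The median slope of the members was -0.54 log2 per hour in WT and -0.43 in Mettl3-KO, and that of all genes -0.56 and -0.47. Half-lives are derived from these slopes, as the time for 1 log2 unit of loss, and dilution by cell division was not taken out.

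**Figure D3:**
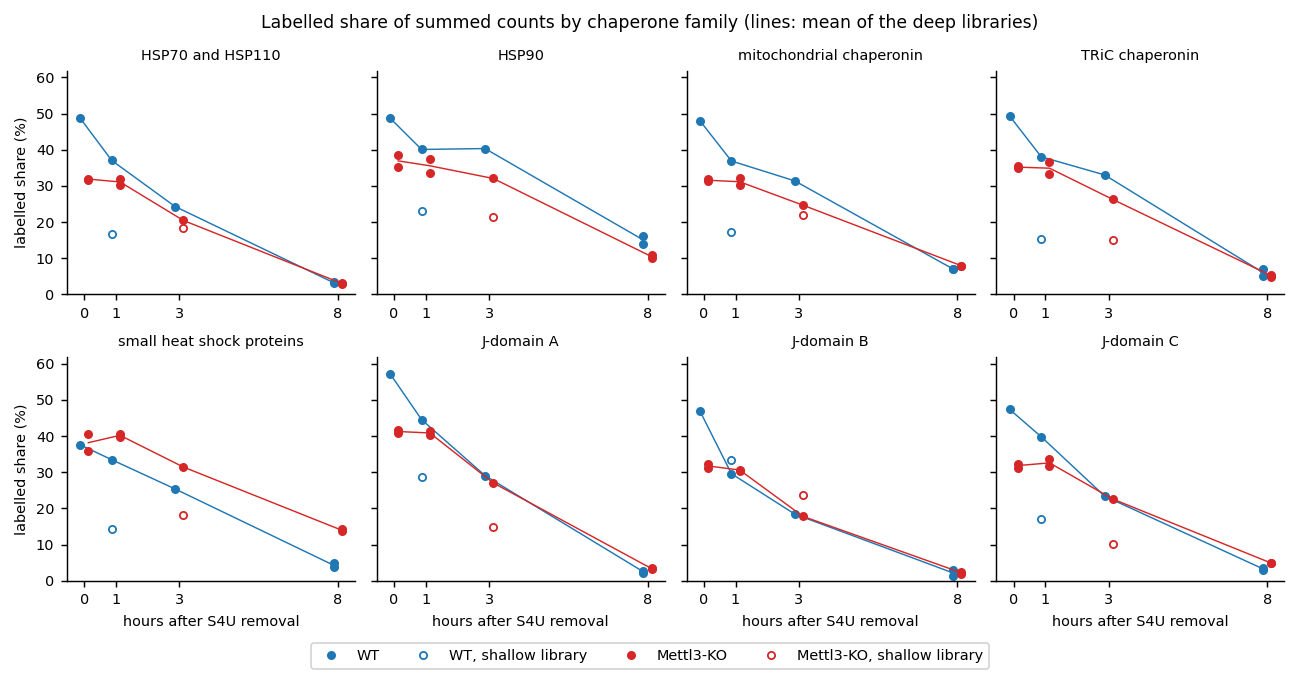
Labelled share (conversion counts divided by total counts, in percent) of the summed counts of each chaperone family against hours after S4U removal, 1 point per library, open for the 2 shallow libraries, with lines through the means of the deep libraries. HSP90 keeps the highest share in WT at 8 h (13.8% and 16.3%), and the small heat shock proteins keep 14.2% and 13.7% in Mettl3-KO against 4.80% and 3.79% in WT. These sums rest on different genes in the lines. Conversion counts at 8 h in Mettl3-KO were 370 and 869 for Hspb8 and 282 and 1083 for Hspb1. In WT they were 10 and 12 for Hspb8 and 274 and 123 for Hspb1.

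Families differed in how long label stayed. In WT the half-life from the median slope was longest for the TRiC genes at 3.18 h, followed by the mitochondrial chaperonin at 2.55 h, the small heat shock proteins at 2.23 h and HSP90 at 2.06 h. It was 1.85 h for HSP70 and HSP110 and 1.68, 1.49 and 1.32 h for the J-domain C, A and B families. In Mettl3-KO the order was HSP90 at 4.56 h, the mitochondrial chaperonin at 4.27 h, the small heat shock proteins at 4.05 h, TRiC at 2.93 h, J-domain A at 2.27 h, HSP70 and HSP110 at 2.26 h, J-domain B at 1.93 h and J-domain C at 1.92 h. The order of the families is a description, since it was not tested. For HSP90, a median of 3 genes, the 4.56 h in Mettl3-KO is the value of Hsp90ab1. This gene held most of the HSP90 counts, and its half-life in WT was 4.58 h, so the HSP90 medians come from different genes in the 2 lines. For the small heat shock proteins 4 genes were tested, and in Mettl3-KO only 2 were called as losing label. The slopes of Hspb1 and Hspb8 were not called there, and half-lives ran from 2.17 to 39.9 h, so the 4.05 h is uncertain. Within families the spread was wide: WT half-lives of the TRiC genes ran from 1.89 h (Cct6a) to 3.93 h (Cct5).

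Among the 3 HSP90 genes Hsp90ab1 kept the highest labelled share at 8 h in both lines. Its labelled share was 48.4% at 0 h in WT (95% Wilson interval 47.9% to 48.8%, counting error only, and only if a conversion count is 1 read, which is not given in the sources used here), 39.8% at 1 h, 40.6% at 3 h and 14.3% and 16.8% at 8 h in the deep libraries. In Mettl3-KO it was 38.5% and 34.7% at 0 h, 33.3% and 37.5% at 1 h, 32.0% at 3 h and 10.3% and 11.0% at 8 h. The Mettl3-KO shares lay below the WT shares at each time, and the fitted half-lives were 4.58 h in WT against 4.56 h in Mettl3-KO (loss rate difference -0.00102 log2 per hour, SE 0.10, adjusted p = 1). Dnajb9, an ER J-domain protein of the unfolded protein response, had a half-life of 1.32 h in WT against 1.30 h in Mettl3-KO. For Hspa8 they were 1.98 and 2.19 h, and its shares at 8 h were 2.82% and 1.80% in WT and 1.97% and 1.85% in Mettl3-KO.

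Loss was slower in Mettl3-KO for 3 of 68 members and faster for none, against 2.4% and 0.205% of all genes. The member median of the difference was 0.13 log2 per hour and that of all genes 0.10, and 54 of 68 members lay above 0. When conversion counts were scaled to each other, these medians were 0.03 and 0.01, 39 of 68 members lay above 0, and 2 members, Hspb8 and Dnajc15, were called slower (1.47% of all genes). With the 12 deep libraries and scaling to total RNA 4 members were slower and none faster (5.05% and 0.3% of all genes), the fourth slower one being Hspa5. With the 1 h and 8 h libraries alone no member was called.

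**Figure D4:**
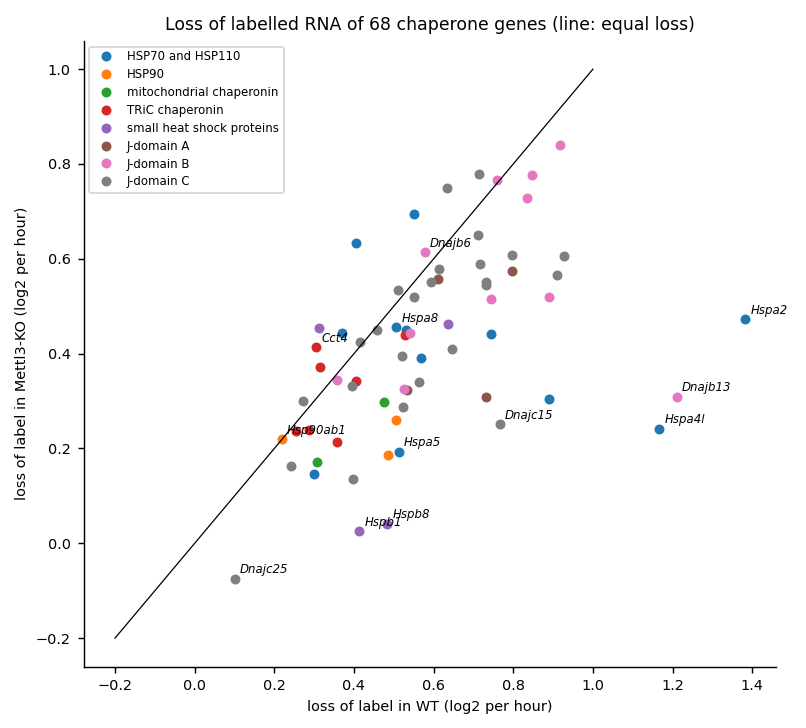
Loss of labelled RNA, scaled to total RNA, in log2 per hour in WT (x axis) and Mettl3-KO (y axis) for 68 chaperone genes, 1 point per gene coloured by family, with a line of equal loss. Points below the line lost label more slowly in Mettl3-KO, which holds for 54 of 68 genes (39 of 68 when conversion counts are scaled to each other), and Hspb8 and Hspb1 lie near 0 in Mettl3-KO.

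Hspb8 lost label in WT, while its fitted slope in Mettl3-KO was not called. Its labelled share in the deep WT libraries was 42.2% at 0 h (95% Wilson interval 38.3% to 46.2%), 35.4% at 1 h, 18.2% at 3 h and 2.36% and 5.41% at 8 h. In Mettl3-KO it was 54.4% and 55.8% at 0 h, 53.0% and 58.3% at 1 h, 49.2% at 3 h and 36.3% and 41.4% at 8 h. Mettl3-KO lay above WT at each time, and the gap was widest at 8 h. The slope was -0.48 log2 per hour in WT and -0.04 in Mettl3-KO (adjusted p = 0.573 for the latter), and the difference was 0.44 (SE 0.11, adjusted p = 0.0161). Total Hspb8 RNA in deep Mettl3-KO libraries was 57.4 and 60.0 CPM at 0 h, 105 and 90.3 at 1 h, 126 at 3 h and 90.9 and 80.4 at 8 h. With the shares above, labelled RNA there was higher at 1 h and 3 h than at 0 h or 8 h. The Mettl3-KO slope is thus a straight line through a rise and a fall. The call was lost without WT 1 h replicate 1, WT 8 h replicate 1 or either Mettl3-KO 8 h library (0.36 to 0.55, highest adjusted p = 0.125). RefSeq places a long noncoding RNA, Gm36841, over 10271 bases of Hspb8.

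Dnajc15 (chromosome 14, 77826217 to 77874917), a J-domain protein of the mitochondrial inner membrane, was labelled at 38.9% at 0 h (95% Wilson interval 35.9% to 42.0%), 34.8% at 1 h, 14.2% at 3 h and 0.626% and 0.830% at 8 h in deep WT libraries. In Mettl3-KO it was at 26.0% and 24.9% at 0 h, 22.2% and 25.6% at 1 h, 21.6% at 3 h and 4.38% and 6.97% at 8 h. The genotypes thus changed order between 1 h and 3 h. The WT shares at 8 h rested on 4 and 2 conversion counts. The half-life was 1.31 h in WT against 3.98 h in Mettl3-KO, a difference of 0.51 log2 per hour (SE 0.13, adjusted p = 0.0156). The call was lost without either WT 8 h library or without Mettl3-KO 8 h replicate 2 (0.48 to 0.54, highest adjusted p = 0.0866).

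For Hspb1 the measure matters. Labelled Hspb1 RNA per unit of total RNA fell by 0.41 log2 per hour in WT and had a slope of -0.03 in Mettl3-KO (adjusted p = 0.741), a difference of 0.39 (SE 0.11, adjusted p = 0.0336). Its own labelled share was 37.2% at 0 h (95% Wilson interval 36.1% to 38.2%) and 4.84% and 3.73% at 8 h in WT, and 32.7% and 25.8% at 0 h and 8.2% and 9.22% at 8 h in Mettl3-KO. Against its own total count, which was 93.9 and 127 CPM at 0 h and 307 and 450 CPM at 8 h in Mettl3-KO, the difference in loss was 0.17 log2 per hour and was not called (adjusted p = 0.147). Hspb8 (0.39, adjusted p = 0.00325) and Dnajc15 (0.45, adjusted p = 0.0119) were called by that measure too. When conversion counts were scaled to each other, the Hspb1 difference was 0.31 and missed the threshold (adjusted p = 0.0565). The first Hspb1 call was lost without WT 1 h replicate 1, Mettl3-KO 1 h replicate 1 or any 0 h Mettl3-KO or 8 h library (0.34 to 0.44, highest adjusted p = 0.144).

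**Figure D5:**
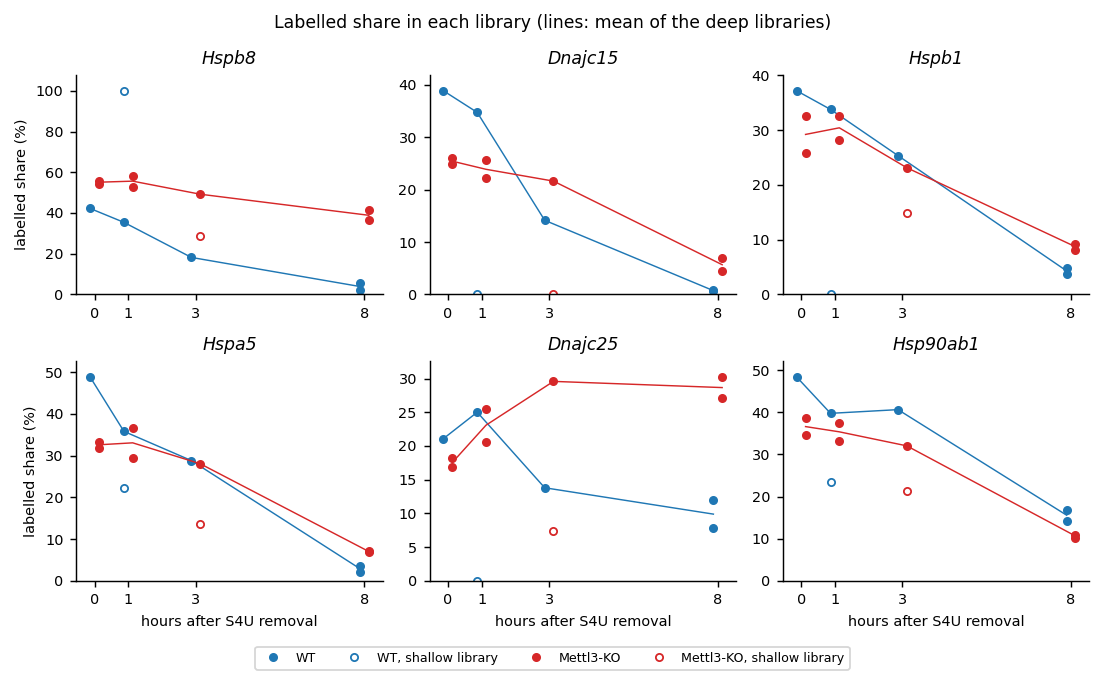
Labelled share in percent (y axis, from 0) against hours after S4U removal for 6 chaperone genes, 1 point per library, open for the 2 shallow libraries, with lines through the means of the deep libraries. Hspb8 of Mettl3-KO stays at 36.3% and 41.4% at 8 h, Dnajc25 of Mettl3-KO lies higher at 8 h (27.1% and 30.2%) than at 0 h (18.3% and 16.8%), and Hsp90ab1 of WT stays above Mettl3-KO.

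Hspa5 had a half-life of 1.95 h in WT against 5.18 h in Mettl3-KO, and the difference of 0.32 log2 per hour missed the threshold with all libraries (adjusted p = 0.0641) and passed it with the 12 deep ones (adjusted p = 0.00606). Its share at 8 h was 2.18% and 3.55% in WT and 7.13% and 6.88% in Mettl3-KO, after 48.8% in WT and 33.3% and 31.9% in Mettl3-KO at 0 h. Dnajc25 was a member whose share at 8 h was no lower than at 0 h in Mettl3-KO. It was at 18.3% and 16.8% at 0 h, 20.6% and 25.5% at 1 h, 29.6% at 3 h and 27.1% and 30.2% at 8 h there, against 21.1%, 25.0%, 13.8% and 11.9% and 7.86% in deep WT libraries. Neither slope of Dnajc25 was called (adjusted p = 0.318 in Mettl3-KO), and neither was their difference.

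At 8 h some TRiC genes held more label in WT. Cct2 was labelled at 11.4% and 9.48% in WT and at 4.99% and 5.22% in Mettl3-KO, and Cct4 at 10.1% and 10.5% and at 4.13% and 3.88%. At 0 h, however, both were also higher in WT (56.8% and 57.0%) than in Mettl3-KO (41.0% to 45.6%). Their loss rate differences were -0.06 (adjusted p = 0.832) and -0.11 log2 per hour (adjusted p = 0.613). Of the other folding genes tested for loss, Manf, an ER stress protein (0.53 log2 per hour, adjusted p = 0.0119), and Hsbp1, a regulator of heat shock factors (0.39, adjusted p = 0.0300), lost label more slowly in Mettl3-KO. With the 12 deep libraries 7 of these genes did: Hspbp1 (adjusted p = 0.0197) and Fkbp4 (0.0417) of the co-chaperones, Manf (0.0023), Calr (0.00608) and Pdia6 (0.0101) of the ER, the mitochondrial protease Lonp1 (0.0281) and Hsbp1 (0.00168).

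The authors' deposited table of fitted half-lives holds 36 of the chaperone genes among 6985 genes and states no unit in its header. Of these 36 genes, 33 (91.7%) had a longer half-life in Mettl3-KO in the authors' deposited table, against 83.4% of all genes. The median of these members in the authors' deposited table was 1.63 in WT and 2.53 in Mettl3-KO, and that of all genes 1.69 and 2.52. Hsph1 (1.64 and 5.89), Hspa4 (1.75 and 4.70) and Hspa8 (1.70 and 4.26) had longer values in Mettl3-KO in the authors' deposited table, whereas Dnajc1, Dnajb9 and Hspa13 did not. Cct2 had a longer value in Mettl3-KO too (2.703 and 4.396) in the authors' deposited table. The fits described above differed for Hspa8, whose half-lives were close in both lines. They also differed for Cct2, whose loss was not slower in Mettl3-KO. For Dnajb9 both sources gave close half-lives in the lines. The reason for these differences was not tested. Hspb1, Hspb8, Dnajc15, Hspa5 and Hsp90ab1 have no entry among the members in the authors' deposited table.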

How the data were processed

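The authors deposited whole-number counts per gene symbol, as total counts and as counts of T>C conversions, for 14 libraries. Not given in the sources used here are the aligner, the strand used in counting and the unit of a conversion count (a read, or each converted base). Tools named in the submitters' processing notes are edgeR 3.32.1, Subread 1.5.0 with featureCounts and Trim Galore 0.4.0, on mm10. Other values, half-lives fitted by the authors, came from a further deposited table. A deposited table of log values was not used. The entry without a gene name (at most 0.0312% of a library) was left out.

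Total counts of 14641 genes that reached 10 counts in 6 or more libraries were fitted in edgeR 4.0.16 (R 4.3.3, TMM, robust quasi-likelihood F tests), with genotype and chase time as factors. A second fit with hours tested the difference in change per hour. Conversion counts of 12678 genes that reached 10 in 3 or more libraries were fitted with genotype, hours and their interaction. Label at 0 h was compared by the genotype term, where the fitted lines stand at 0 h. They were scaled by the TMM-scaled total count of the library or by the gene's own total count (0 raised to 0.5). A difference above 0 in loss means slower loss in Mettl3-KO. P-values were adjusted over all genes tested (Benjamini-Hochberg, threshold 0.05), and SE is the log2 effect over the square root of F. Every fit held all groups, because 2 WT groups (0 h and 3 h) are 1 library each, assumed to vary like the others. The labels' replicate numbers did not pair the libraries. Tests were tried on simulated data. Alternatives were DESeq2 1.42.0, RLE scaling, no filter, other scalings of the label, a replicate block and leaving out libraries.

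Named were the members called in a comparison (up to 12 per direction), core chaperones chosen by name, and up to 4 genes of each other list. Hspb11 and further members named with their values were chosen after these were seen. The members and lists were chosen with earlier results of these data known.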

Additional observations from a re-analysis of the deposited data

Results flagged for a closer look

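Of 66 groups of libraries looked at for 33 chaperone genes, 3 held a library far from the others, and chance flags about 1 in 20 such groups. All 3 were Cct genes in a shallow library. Cct2 was at 194 CPM in Mettl3-KO 3 h replicate 2, where the other Mettl3-KO libraries lay between 367 and 491 CPM. Cct4 was at 127 CPM in the same library, with the others between 290.0 and 387 CPM. Cct3 was at 150 CPM in WT 1 h replicate 2, with the other WT libraries between 405 and 515 CPM. Their part in the results was measured by leaving these libraries out, and no Cct gene was called with or without them.

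For 3 members the loss of label differed between the genotypes by the interaction of genotype and hours in edgeR. The difference was 0.39 log2 per hour for Hspb1, 0.44 for Hspb8 and 0.51 for Dnajc15, each slower in Mettl3-KO, with adjusted p of 0.0336, 0.0161 and 0.0156.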

How the results depend on the processing

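For total RNA, 14 were higher and 4 lower with all libraries. Without the 2 shallow libraries 27 were higher. With no count filter 9 were higher and 0 lower. Leaving out 1 library at a time gave 9 to 25 higher (9 without WT 1 h replicate 1 or Mettl3-KO 8 h replicate 1, 25 without Mettl3-KO 3 h replicate 2) and 0 to 6 lower (0 without WT 1 h or 3 h replicate 1). DESeq2 called 3 members over the chase and 2 higher in label at 0 h. Label at 0 h was higher for 2 without the shallow libraries and for 4 with TMM of the conversion counts, which left 1 lower, and leaving out 1 library gave 0 to 2 higher and 1 to 3 lower. Leaving out 1 library gave 59 to 67 members that lost label in WT, 49 to 61 in Mettl3-KO and 0 to 4 slower (0 without WT 8 h replicate 1 or Mettl3-KO 8 h replicate 2). Slower loss was called for 0 with the 1 h and 8 h libraries only. The cause of these shifts was not tested.

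Same-numbered libraries deviated together with correlations of -0.08 to 0.43, above 0.1 in 2 of 15 pairs, so the replicate numbers were not taken as a pairing. With the replicate block 18 members were higher and 2 lower in total RNA, and 1 was lower in label at 0 h. With the block and without the shallow libraries, a setting added after seeing the data, 25 were higher, 1 (Hspb1) was called for change per hour, 2 were higher and 1 was lower in label at 0 h.

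TMM of the conversion counts takes out the loss that all genes share, by its construction. Then 1 member lost label in WT and 8 in Mettl3-KO, and the slope was positive for 27 and 33 of 68 members, in log2 per hour relative to the average label. Among the core chaperones followed through every setting, those turned positive in WT were Hspa8 0.0025, Hspa5 0.0029, Hsp90b1 0.0044, Hsp90aa1 0.024, Hspd1 0.035, Hspb1 0.10, Cct3 0.11, Hspa9 0.14, Cct7 0.15, Dnajb1 0.15, Cct2 0.20, Hspe1 0.20, Cct4 0.21, Cct8 0.22, Cct5 0.26, Hsp90ab1 0.29. In Mettl3-KO they were Cct4 0.015, Hsph1 0.039, Cct2 0.057, Dnajb1 0.083, Cct3 0.091, Dnaja1 0.11, Hspd1 0.13, Hsp90b1 0.16, Cct8 0.19, Cct5 0.19, Hsp90ab1 0.21, Cct7 0.22, Hspa5 0.23, Hsp90aa1 0.24, Hspe1 0.26, Hspa1b 0.27, Hspb1 0.41. Of all values recomputed under alternatives, single genes and counts, 3869 kept their direction and side of the threshold (counts: stayed within 1.5 times), 128 were no longer past the threshold, 38 newly passed it, 33 reversed, all under TMM of the conversion counts, and 42 counts moved by more.

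Depth limits what the shallow libraries show: 60 and 32 of the 72 members had under 10 counts there.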
